A study of Mus musculus with 2 samples.

Results

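The subject here is 37 genes of DNA damage signalling and DNA break repair, measured in regulatory T (Treg) cells that carried or lacked an intact gene for the proteasome deubiquitinase POH1. The genes were chosen by name from known functions, and all 37 were found on 1 row each among the 34745 gene rows of the deposited tables. They fall into damage kinases and a partner (6 genes), homologous recombination (15), the Fanconi pathway (5), end joining (7), mismatch repair (1) and repair genes linked to p53 (3).

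RNA came from splenic CD4+ cells sorted for the yellow fluorescent reporter that marks Foxp3, the transcription factor of Treg cells, in 2-week-old C57BL/6 mice. All mice carried Foxp3Cre, which drives the Cre recombinase in Foxp3-expressing cells. The wild-type library came from poh1+/+ Foxp3Cre+ mice and the knockout library from poh1fl/fl Foxp3Cre+ mice, in which deletion was limited to cells that had expressed Foxp3. There was 1 library per genotype, so no difference has a replicate check and no test was possible. The labels used here do not say whether animals were pooled.

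The total gene count was 18124611 for the wild-type library and 14544212 for the knockout library. Values given in pairs below are wild type first, knockout second. Psmd14, the mouse gene of POH1, had 1619 and 463 counts, which is 89.4 and 31.8 CPM (counts relative to scaled library size), and was 2.81-fold lower in the knockout library (95% counting interval 2.53 to 3.12). Transcripts that lack just the deleted part would still be counted, and the source of the remaining counts was not tested. Foxp3 was at 671 and 1073 CPM. Of 7 Treg and T cell markers, Foxp3 and Il2ra were higher and Ctla4 and Ikzf2 lower with intervals wholly beyond 1.5-fold, and the 7 summed to 5153 and 5258.5 CPM. Il2ra, a receptor chain and the marker with the highest mean CPM of the 7, was 1.55-fold higher (1.52 to 1.58). CPM is not corrected for gene length. Intervals in parentheses are exact 95% conditional-binomial intervals throughout. They cover counting error and not the spread between mice. An interval end under 1 lies on the other side of an equal level.

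A DNA break with both strands cut is sensed by the kinase ATM and its MRE11-RAD50-NBS1 sensor, and single-stranded DNA at stalled forks by ATR with ATRIP. Both pass the signal to the checkpoint kinases CHK1 and CHK2. A break is then either joined directly by the Ku, DNA-PK and ligase IV machinery, or its ends are cut back and repaired by copying the sister chromatid, a route open in S and G2 phase. Many genes of the second route are transcribed mainly in dividing cells, under E2F factors. POH1 is itself known to act on ubiquitin chains at DNA breaks.

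The promoter stretches below show where short letter patterns of cell cycle factors occur in members that lay at different places in the comparison. Each runs 5′ to 3′ in the direction of transcription, from 110 bases before to 29 after the annotated start, from RefSeq (GRCm38.p6). Capitals mark an E2F pattern (the letters TTCCCGC, the letters TTGGCGC, the letters TTCGCGC or the letters TTGCCGC) or the NF-Y pattern CCAAT, on either strand. The stretches are Rad51ap1 at chr6:126939558-126939697 (minus strand), Rad54l at chr4:116123661-116123800 (minus), Brip1 at chr11:86201164-86201303 (minus), Msh6 at chr17:87974940-87975079 (plus), Brca1 at chr11:101551926-101552065 (minus) and Xrcc4 at chr13:90089579-90089718 (minus).
Rad51ap1: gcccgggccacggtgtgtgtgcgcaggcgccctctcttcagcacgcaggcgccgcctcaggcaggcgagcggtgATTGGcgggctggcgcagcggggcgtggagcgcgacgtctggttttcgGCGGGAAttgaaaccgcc
Rad54l: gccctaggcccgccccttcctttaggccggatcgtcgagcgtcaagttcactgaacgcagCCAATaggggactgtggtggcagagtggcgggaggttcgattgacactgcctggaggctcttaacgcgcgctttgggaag
Brip1: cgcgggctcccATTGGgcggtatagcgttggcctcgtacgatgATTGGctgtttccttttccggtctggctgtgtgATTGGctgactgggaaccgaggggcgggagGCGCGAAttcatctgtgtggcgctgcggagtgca
Msh6: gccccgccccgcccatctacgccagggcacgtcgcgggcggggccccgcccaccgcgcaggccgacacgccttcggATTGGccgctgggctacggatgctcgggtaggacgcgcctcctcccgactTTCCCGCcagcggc
Brca1: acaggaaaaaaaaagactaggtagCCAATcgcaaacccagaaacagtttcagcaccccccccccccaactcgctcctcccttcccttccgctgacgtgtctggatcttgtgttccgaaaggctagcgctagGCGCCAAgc
Xrcc4: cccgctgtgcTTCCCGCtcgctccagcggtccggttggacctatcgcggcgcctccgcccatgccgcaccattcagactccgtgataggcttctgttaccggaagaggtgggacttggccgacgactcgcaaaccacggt
The stretches of Rad51ap1, Msh6 and Brca1 each hold 1 E2F and 1 CCAAT pattern, and that of Brip1 holds 1 and 3. The stretch of Rad54l holds 1 CCAAT pattern and 0 E2F patterns, and that of Xrcc4 holds 1 E2F and 0 CCAAT patterns. Their ratios of knockout to wild type ran from 2.32-fold lower (Rad54l) to 1.57-fold higher (Xrcc4). Among these chosen stretches, an E2F pattern was present on both sides of an equal level. Its link to the ratio was not tested.

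The 37 genes differed modestly between the libraries. The largest difference was 2.70-fold. In one library or both, all 37 reached 1 CPM, the level from which a gene is called measured here, with between 96 and 2815 counts. Counting a gene as lower or higher where its interval lay wholly beyond 1.5-fold, 5 of 37 (13.5%) were lower in the knockout library, against 12.3% of all 13464 measured genes. These were Exo1, Wee1, Rad54l, Fancd2 and Chek1. None of the 37 were higher by that rule, against 9.58% of all genes. Among the 8298 genes within the wild-type CPM range of the 37, 11.8% were lower and 7.45% higher. The share counted as lower is close to that of all genes, so the count is not a result about these genes.

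Most ratios were nevertheless below 1. The log2 ratio of knockout to wild type had a median of -0.26 over the 37 genes (quartiles -0.49 and -0.02), beside -0.01 over all measured genes (quartiles -0.44 and 0.39). The ratio was below 1 in 28 of 37 genes (75.7%), compared with 50.4% of all measured genes. Of the 37 intervals, 21 (56.8%) lay wholly below an equal level and 8 (21.6%) wholly above it, where 35.3% and 34.3% of all genes did. In the remaining 8 genes the interval held an equal level. Fewer cells expressing a gene and less of its RNA per cell cannot be told apart in such bulk libraries.

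**Figure D1:**
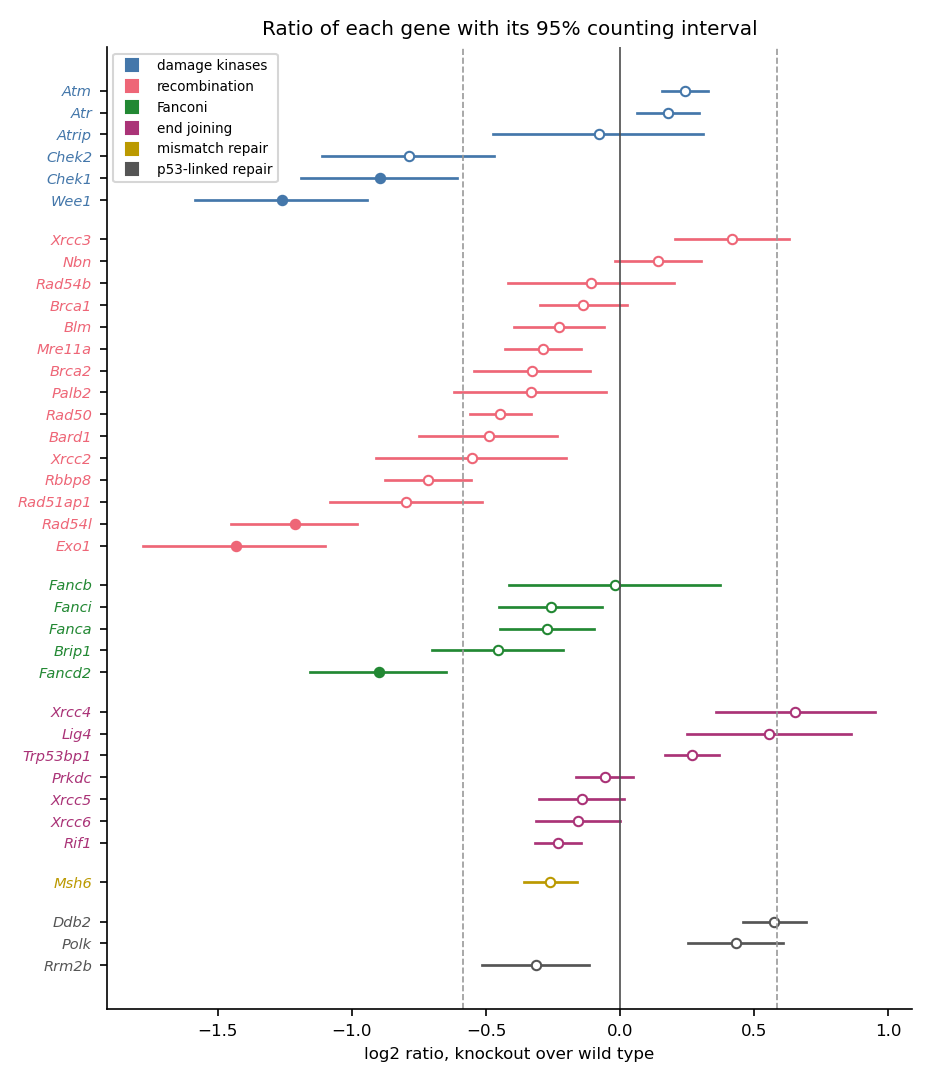
Log2 ratio of knockout to wild type for each of the 37 genes, ordered by class, with 95% counting intervals as bars. Dashed lines mark 1.5-fold and filled points mark the 5 genes whose interval lies wholly beyond it; Exo1 lies farthest to the left and Xrcc4 farthest to the right.

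Among the damage kinases, the apical kinases had ratios above 1 and the checkpoint kinases ratios below 1. Atm, the kinase activated by DNA breaks (chromosome 9, 53439149 to 53536740, minus strand, mm10), had 2176 and 2066 counts, 120.1 and 142 CPM, and was 1.18-fold higher (1.11 to 1.26). Atr, the kinase of stalled forks, was at 70.3 and 79.5 CPM, 1.13-fold higher (1.04 to 1.23). Its partner Atrip, which brings ATR to single-stranded DNA, was at 7.12 and 6.74 CPM, and its interval held an equal level (1.06-fold lower, 0.806 to 1.39).

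The kinases downstream had ratios below 1, with Wee1 and Chek1 past 1.5-fold. Wee1, which restrains entry into mitosis (chromosome 7, 110122046 to 110143286, plus strand), had 328 and 110 counts, 18.1 and 7.56 CPM, a 2.39-fold lower level (1.92 to 3.0). Chek1, the gene of the ATR target CHK1 (chromosome 9, 36708482 to 36727065, minus strand), had 329 and 142 counts, 18.2 and 9.76 CPM, 1.86-fold lower (1.52 to 2.28). Scaled by upper quartile, Chek1 was 1.81-fold lower (1.48 to 2.22), which is no longer wholly beyond 1.5-fold. Chek2, the gene of the ATM target CHK2, had 260 and 121 counts and was 1.73-fold lower (1.39 to 2.16), with an interval that reached inside 1.5-fold. The intervals of Atm and Atr overlap neither that of Wee1 nor those of Chek1 and Chek2. Summed over the 6 genes the level was 248 and 254 CPM, most of it from Atm and Atr.

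The recombination class had ratios below 1 in 13 of 15 genes, with a median log2 ratio of -0.33 and 2 genes past 1.5-fold. Of all measured genes, 50.4% had a ratio below 1 and 12.3% were lower past 1.5-fold. The counts of each class are to be read against these shares. Its summed level was 492 and 381 CPM, so that the knockout library held 77.5% of the wild-type level (74.9% to 80.2%). The first step, in which break ends are trimmed, is carried out by the MRE11-RAD50-NBS1 complex with CtIP, and extended by EXO1 and the BLM helicase.

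Exo1, an exonuclease that lengthens the trimmed ends and also serves mismatch repair (chromosome 1, 175880581 to 175913489, plus strand), had 323 and 96 counts. That is 17.8 and 6.60 CPM, 2.70-fold lower (2.14 to 3.43), the largest difference of the 37 genes and the single one wholly beyond 2-fold, where 6.63% of all genes were lower and 4.34% higher. Rbbp8, the gene of CtIP, had 959 and 469 counts and was 1.64-fold lower (1.47 to 1.84). Blm was at 40.1 and 34.2 CPM, 1.17-fold lower (1.04 to 1.31).

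The 3 genes of the sensor complex did not share one ratio. Rad50, its zinc-hook subunit, had 1701 and 1002 counts, 93.9 and 68.9 CPM, and was 1.36-fold lower (1.26 to 1.48). Mre11a, the nuclease, was at 57.4 and 47.0 CPM, 1.22-fold lower (1.11 to 1.35). Nbn, the subunit that recruits ATM, was at 37.03 and 40.8 CPM, with a ratio 1.10-fold higher whose interval held an equal level (0.986 to 1.23). The interval of Nbn overlaps neither that of Rad50 nor that of Mre11a.

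None of the 4 genes that load the strand-exchange recombinase passed 1.5-fold, and all had ratios below 1. Brca1, which promotes trimming and loading (chromosome 11, 101488764 to 101551955, minus strand), had 738 and 539 counts, 1.10-fold lower, and its interval held an equal level (0.982 to 1.23). Its obligate partner Bard1 had 350 and 200 counts and was 1.41-fold lower (1.18 to 1.68). Palb2, the bridge between BRCA1 and BRCA2, and Brca2, the loader, had nearly the same ratio, 1.26-fold lower each (1.04 to 1.54 and 1.08 to 1.46). Palb2 had 270 and 172 counts and Brca2 452 and 289.

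Among the accessory factors of strand exchange, Rad54l alone passed 1.5-fold. Rad54l, a motor protein that remodels the exchange intermediate (chromosome 4, 116094264 to 116123690, minus strand), had 589 and 204 counts, 32.5 and 14.0 CPM, 2.32-fold lower (1.97 to 2.73). Its relative Rad54b had 208 and 155 counts, and its interval held an equal level (1.08-fold lower, 0.871 to 1.34). The intervals of Rad54l and Rad54b do not overlap. Rad51ap1, a cofactor of the recombinase, had 331 and 153 counts and was 1.74-fold lower (1.43 to 2.12). The recombinase paralog genes Xrcc2 and Xrcc3 differed in direction. Xrcc2 had 190 and 104 counts, 1.47-fold lower (1.15 to 1.88), and Xrcc3 358 and 384 counts, 1.34-fold higher (1.15 to 1.55).

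The Fanconi pathway repairs crosslinks between DNA strands. All 5 of its genes here had a ratio below 1 (median log2 ratio -0.27), as did 50.4% of all measured genes. Their summed level was 119 and 90.9 CPM, 76.4% of wild type (71.2% to 81.8%). Fancd2, a subunit of the ubiquitinated clamp at the centre of the pathway (chromosome 6, 113531682 to 113597017, plus strand), had 430 and 185 counts, 23.7 and 12.7 CPM, 1.87-fold lower (1.57 to 2.23). Fanci, the other subunit of the clamp, had 559 and 375 counts and was 1.20-fold lower (1.05 to 1.37), an interval that does not overlap that of Fancd2.

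Brip1, the helicase partner of BRCA1, had 376 and 220 counts, 1.37-fold lower (1.16 to 1.63). Fanca and Fancb belong to the core ligase complex that ubiquitinates the clamp. Fanca had 668 and 444 counts, 1.21-fold lower (1.07 to 1.37). Fancb, at 125 and 99 counts, was 1.01-fold lower with an interval of 0.773 to 1.33, and its ratio passes above 1 when libraries are scaled by upper quartile.

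**Figure D2:**
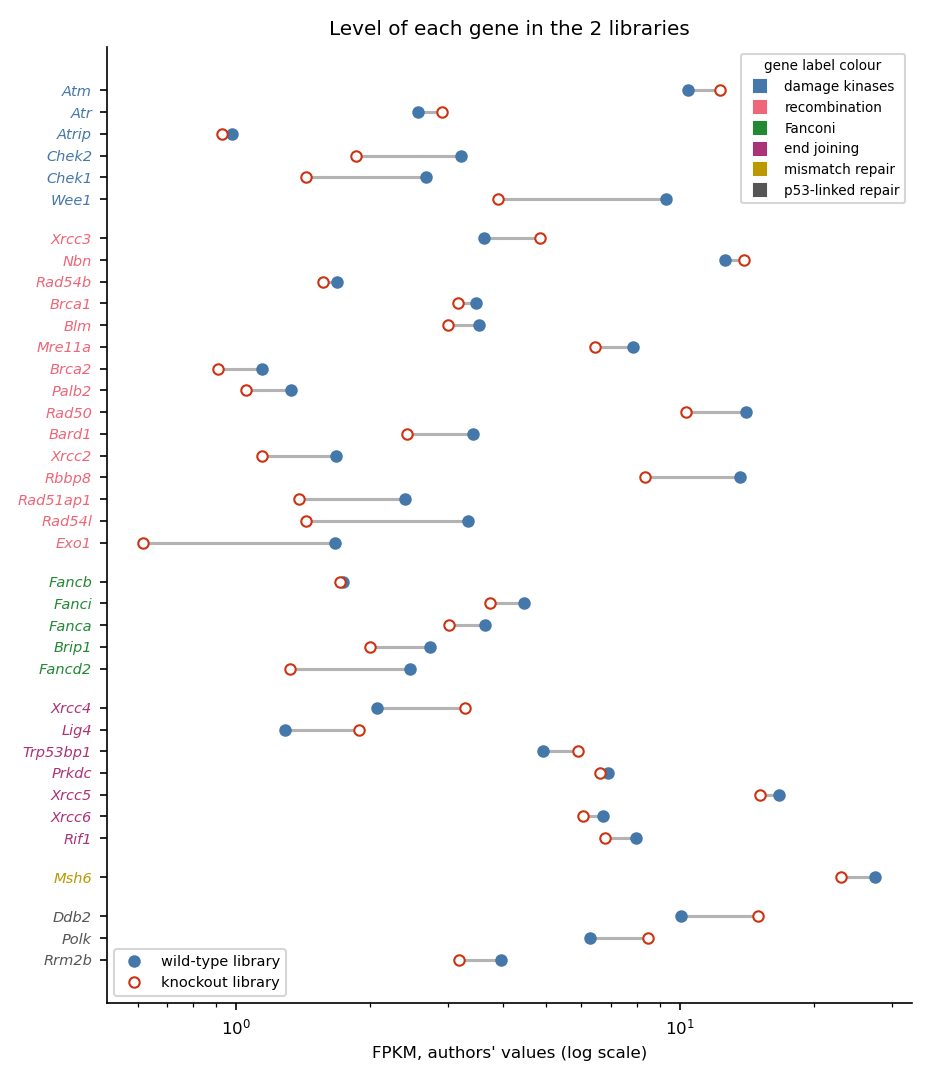
Level of each of the 37 genes in the wild-type library (filled points) and the knockout library (open points) as the authors' FPKM on a log scale, with a line joining the 2 libraries. Exo1 has the lowest knockout value, 0.618 FPKM, and Msh6 has the highest value in both libraries.

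End joining was close to level, with 4 of 7 ratios below 1, a median log2 ratio of -0.06 and 0 genes past 1.5-fold. Its summed level was 445 and 439 CPM, 98.5% of wild type (95.3% to 102%). The Ku genes Xrcc5 (Ku80) and Xrcc6 (Ku70), whose products ring the broken end, had ratios 1.10-fold (0.989 to 1.23) and 1.11-fold lower (1.00 to 1.24), and both intervals held an equal level. Prkdc, the gene of the DNA-PK catalytic subunit that Ku recruits, had 1689 and 1303 counts, and its interval held an equal level (1.04-fold lower, 0.968 to 1.12).

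The ligation genes lay on the other side. Xrcc4, the scaffold of DNA ligase IV (chromosome 13, 89774027 to 90089608, minus strand), had 171 and 216 counts, 9.44 and 14.8 CPM, 1.57-fold higher (1.28 to 1.93). It was the highest ratio of the 37. Lig4, the ligase gene, had 168 and 198 counts, 1.47-fold higher (1.19 to 1.81). Both intervals reached inside 1.5-fold.

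Trp53bp1 and Rif1, whose products shield broken ends from trimming, also parted. Trp53bp1 had 1656 and 1601 counts, 1.20-fold higher (1.12 to 1.29), and Rif1 had 2815 and 1925 counts, 1.17-fold lower (1.11 to 1.24). Exons of Trp53bp1 overlap those of Tubgcp4, on the opposite strand, over 15.0% of their length. Tubgcp4 was 1.67-fold higher (1.57 to 1.77), and the kit does not mark strand.

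Msh6, a subunit of the mismatch sensor (chromosome 17, 87975062 to 87990892, plus strand), was the most abundant of the 37 per length in both libraries, at 27.6 and 23.0 FPKM (fragment counts divided by gene length and sequencing depth). It had 2125 and 1425 counts and was 1.20-fold lower (1.12 to 1.28).

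The 3 repair genes linked to p53 were split. Ddb2, which recognises ultraviolet lesions, had 1089 and 1302 counts, 60.1 and 89.5 CPM, 1.49-fold higher (1.37 to 1.62). Polk, a polymerase that copies past lesions, had 513 and 555 counts, 1.35-fold higher (1.19 to 1.52). Rrm2b, the p53-inducible subunit of ribonucleotide reductase, had 522 and 337 counts, 1.24-fold lower (1.08 to 1.43). Its S-phase relative Rrm2 had 2868 and 722 counts, 3.19-fold lower (2.94 to 3.47). The FPKM of Rrm2b was 0.0930 of that of Rrm2 in wild type and 0.239 of it in the knockout. Exons of Ddb2 overlap those of Acp2 over 23.8% of their length. Acp2 was 1.13-fold higher (1.02 to 1.25).

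Partners and relatives were also set side by side, in pairs chosen after the values were known. The closest were Brca2 with Palb2, at a difference in log2 ratio of 0.005, and Xrcc5 with Xrcc6, at 0.01. Among pairs within the 37 genes, Rad54l with Rad54b was farthest apart, with Rad54l lower by 1.10 on the log2 scale (a difference of -1.10), followed by Xrcc2 with Xrcc3 (-0.97), Fancd2 with Fanci (-0.64) and Rad50 with Nbn (-0.59).

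By level per length, the order in the wild-type library after Msh6 was Xrcc5 (16.7 FPKM), Rad50 (14.1), Rbbp8 (13.7), Nbn (12.7) and Atm (10.4). The lowest were Atrip (0.980), Brca2 (1.14) and Lig4 (1.29). Exo1 was at 1.67 FPKM in the wild-type library, and at 0.618 FPKM it was the lowest of the 37 in the knockout library. The gene lengths behind the FPKM values are not those of the annotation used for coordinates. The length implied by count and FPKM was between 0.309 times (Rbbp8) and 2.19 times (Ddb2) the exon length in GENCODE M21, so neighbours in this order are not told apart by it.

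Of the 37 genes, 11 have exons that overlap another gene over more than 5% of their length. Rad54b shares 35.8% with Fsbp, which had 17 and 13 counts. Atrip shares 16.0% with Trex1, which was at 3.15 and 6.60 CPM. Rad54l shares 15.4% with Lrrc41, which was 1.19-fold lower (1.05 to 1.35), and Fanci shares 16.0% with Polg, which was 1.05-fold lower (0.986 to 1.11). Fanca shares 10.5% with Zfp276, which was 1.06-fold higher (0.923 to 1.21). Xrcc6 shares 7.685% with Desi1, which had 1140 and 464 counts and was 1.97-fold lower (1.77 to 2.20). Among the 5 genes past 1.5-fold, Rad54l is the one with such an overlap.

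**Figure D3:**
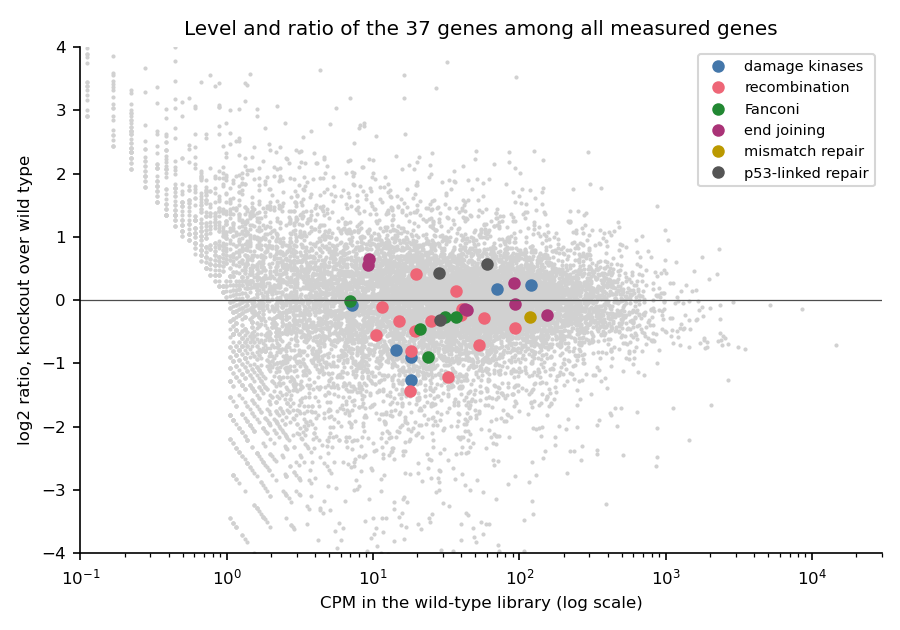
Log2 ratio of knockout to wild type against CPM in the wild-type library (log scale) for the measured genes (grey) and the 37 genes (coloured by class); 181 measured genes lie beyond the axes and are not drawn. The 37 genes span 6.90 to 155 CPM and lie within the spread of genes of their level.

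The rest of the pathway was described with lists of 130 further measured genes. Of these, 22 (16.9%) were lower and 2 higher past 1.5-fold, where 12.3% and 9.58% of all genes were, and the median log2 ratio was -0.14. The counts of each list are to be read against these shares of all genes. The 2 higher genes were Cdkn1a, the p53-induced inhibitor of cyclin-dependent kinases (259 and 410 counts, 1.97-fold, 1.68 to 2.31), and Uvssa, a factor of transcription-coupled repair (1155 and 1576 counts, 1.70-fold, 1.57 to 1.84).

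In the wider damage signalling list, 4 of 28 genes were lower, 0 were higher and the median log2 ratio was -0.11. H2afx, the histone that ATM marks around breaks, had 2232 and 679 counts and was 2.64-fold lower (2.42 to 2.88). Clspn, the adaptor between ATR and CHK1, was 1.99-fold lower (1.80 to 2.22). In the wider recombination list 5 of 32 were lower and 0 higher (median -0.18). Parpbp had 372 and 89 counts, 3.36-fold lower (2.66 to 4.28), and Eme1, a subunit of a nuclease that resolves joint molecules, was 2.31-fold lower (1.77 to 3.02).

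In the wider Fanconi list 5 of 21 were lower and 0 higher (median -0.19), and 7 had ratios above 1. Its summed level was 94.8% of wild type (92.5% to 97.1%). The lower genes were led by those of DNA-anchoring subunits, Faap24, 3.08-fold lower (2.38 to 4.04), and Stra13, 3.0-fold lower (2.49 to 3.64). In the wider end joining list 2 of 16 were lower and 0 higher (median -0.02). Dntt, the template-free polymerase of antigen receptor joining, had 41 and 8 counts, 4.11-fold lower (1.90 to 10.2), and Parp1, a break sensor, was 1.70-fold lower (1.61 to 1.80).

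The wider mismatch repair list, which includes clamp and clamp loader genes shared with replication, had 4 of 14 lower and 0 higher (median -0.34). Rfc4, a clamp loader subunit, was 2.47-fold lower (2.01 to 3.06), and Lig1, the replicative ligase, 1.67-fold lower (1.56 to 1.79). The list of nucleotide excision, lesion bypass and nucleotide supply had 2 of 20 lower and 2 higher, with a median of 0.16. Rrm1, the large subunit of ribonucleotide reductase, was 2.67-fold lower (2.52 to 2.84).

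Genes of cell division were taken from 2 further lists. Among 29 genes listed for DNA replication, 15 were lower, 0 were higher, 14 were neither (2 with ratios above 1), and the median log2 ratio was -0.80. Their summed level was 2527 and 1397 CPM. In a list of 25 mitosis genes 24 were lower and 0 higher (median -1.55), and their summed level went from 3167 to 1104 CPM. Orc1, a subunit of the origin recognition complex, was 3.95-fold lower (2.97 to 5.33). The kinase gene Plk1 was 4.83-fold (4.17 to 5.62) and Hmmr 4.5-fold lower (3.88 to 5.25). The part of dividing cells in the differences of the 37 genes was not tested.

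**Figure D4:**
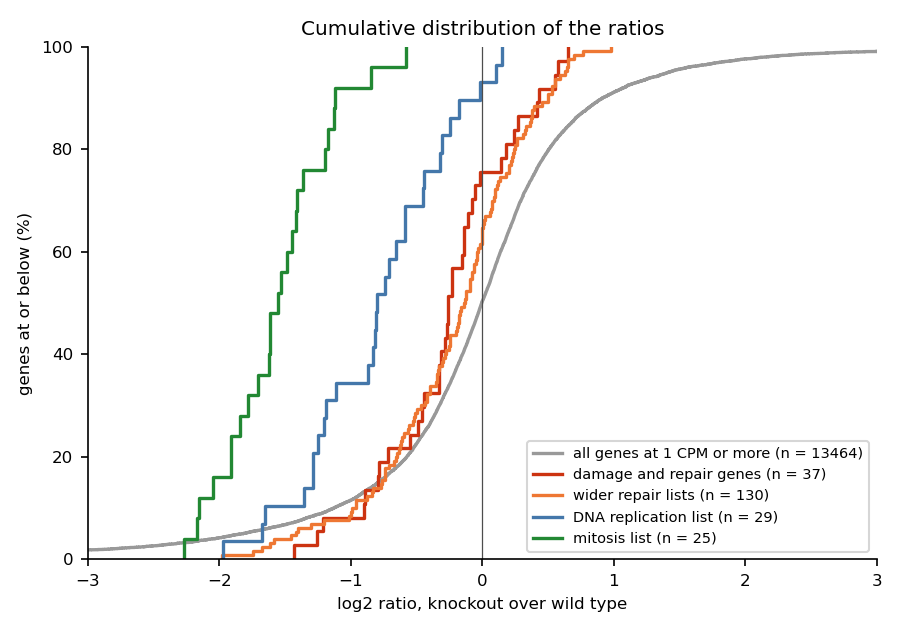
Cumulative share of genes (%) at or below each log2 ratio of knockout to wild type, for all measured genes, the 37 genes, the wider repair lists, and the DNA replication and mitosis lists. The 37 genes, with a median of -0.26, lie between all genes (-0.01) and the DNA replication list (-0.80), and ratios beyond 3 on either side are not drawn.

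Markers of other spleen cells differed too. In the B cell list 10 of 12 genes were lower and 0 higher, and their summed level was 162 and 44.7 CPM. Cd79b, with the highest mean CPM, was 2.10-fold lower (1.77 to 2.51). In the erythroid list 12 of 14 were lower. The exception that was higher, Gata1, was at 29.7 and 108 CPM. The list summed to 165 and 140.15 CPM, and most of the knockout sum was Gata1. Ratios were below 1 in 13 of the 14, with a median log2 ratio of -2.14. No B cell or erythroid marker found in the tables was at 0 counts in either library. In the myeloid list 3 of 11 measured genes were lower and 1 higher (199 and 227 CPM). Ratios were below 1 in 7 of the 11, with a median log2 ratio of -0.06. Csf1r, with the highest mean CPM, was 1.74-fold higher (1.602 to 1.89), and S100a8 and Clec9a were at 0 counts in the knockout library. In the list of NK and CD8 T cell markers 2 of 4 measured genes were higher and 0 lower (37.5 and 62.1 CPM). The other 2 had ratios below 1. Cd8a, with the highest mean CPM, was at 7.40 and 26.1 CPM, 3.52-fold higher (2.89 to 4.32), and made up most of the rise in the sum. Klra8 was at 0 counts in both libraries and Ncr1 at 0 in the knockout library. The part of these cells in the differences of the 37 genes was not tested.

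In the promoter windows, 250 bases before to 50 from the start on, E2F patterns were close in frequency to the replication list, and CHR patterns rarer than in the mitosis list. RefSeq windows were matched for 25 of the 37 genes. Of the 5 genes past 1.5-fold, Exo1, Wee1 and Fancd2 were not matched. The window of Chek1 held an E2F pattern and that of Rad54l did not. An E2F pattern occurred in 15 of 25 (60.0%), in 63.6% of 22 replication genes, in 22.7% of 22 mitosis genes and in 19.5% of 9528 measured genes with a window. The CHR pattern of mitotic genes (TTTGAA or TTCGAA) occurred in 2 of 25 (8.0%) and in 16.5% of measured genes. It occurred in 27.3% of the replication genes and in 81.8% of the mitosis genes. CCAAT occurred in 16 of 25 (64.0%), in 68.2% of the replication genes, in 81.8% of the mitosis genes and in 43.1% of measured genes. Matches were counted on both strands and on any listed start. The letters TTGGCGC can share bases with CCAAT read on the other strand, which occurred in 0 of the 25 genes. A match is a description of these letters alone.

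Within the 25 genes, the 15 with an E2F pattern had a median log2 ratio of -0.26 and the 10 without had -0.11. Of these, 12 of 15 and 6 of 10 had a ratio below 1. The 16 genes with CCAAT had a median of -0.24 and the 9 without a median of 0.18. For CHR, the 2 genes with it had a median of -0.16 and the 23 without a median of -0.23. Among all measured genes with a window, the median was -0.06 with an E2F pattern and 0.00 without, and -0.02 with CCAAT and 0.00 without. For CHR it was -0.03 with and -0.004 without. Of these measured genes, 1004 of 1854 with an E2F pattern and 3823 of 7674 without had a ratio below 1.

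**Figure D5:**
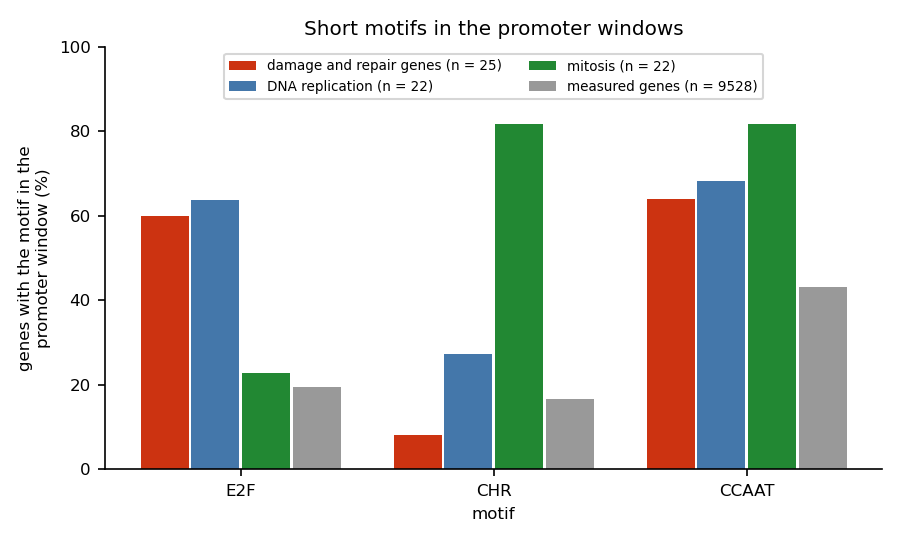
Share of genes (%) whose RefSeq promoter window holds an E2F, CHR or CCAAT pattern, for the damage and repair genes, the DNA replication list, the mitosis list and all measured genes with a window. The damage and repair genes are near the replication list for E2F (60.0% and 63.6%) and far below the mitosis list for CHR (8.0% and 81.8%).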

How the data were processed

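Per the labels' protocols, total RNA was turned into libraries with a TruSeq RNA v2 kit. The kit keeps no strand. TopHat, HTSeq and the mm10 build are named in the submitters' processing notes. Their versions, the annotation and the treatment of reads matching several places were not given in the sources used here. The deposited tables hold, per the file headers, a whole-number read count and an FPKM value per gene name. The authors' FPKM values were used to compare levels between genes and, as an alternative setting, to recompute the median log2 ratios.

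Counts were scaled with TMM factors from edgeR 4.0.16, and CPM and ratios were computed from them. No model was fitted. A gene was counted as lower or higher where its exact 95% conditional-binomial interval lay wholly beyond 1.5-fold. This was applied to genes reaching 1 CPM in either library. For log2 ratios, 0.5 counts were added per library, weighted by its size. Reads carried no molecular identifiers and can be copies of one molecule, so intervals cover counting error only. Positions and exon overlaps come from GENCODE M21 (GRCm38, the mm10 build) with bedtools 2.31.1, which matched all 37 symbols. Named genes were all 37 genes, Psmd14, Foxp3, Rrm2 and genes covering over 5% of the exon length of any of the 37. A pseudogene at Palb2 and an antisense gene at Rrm2b were not analysed here. Each wider list gave up to 2 genes at each end by the interval end nearest to 1. Each cell type list gave the marker with the highest mean CPM. The genes and lists were chosen with earlier results of these data known. Python 3.11.15 with scipy 1.17.1 was used, and the interval code was tested on simulated data. DESeq2 1.42.0 gave size factors for an alternative scaling.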

Additional observations from a re-analysis of the deposited data

How the results depend on the processing

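Other scalings (library totals, DESeq2 size factors, upper quartile) and 2 added counts left the median log2 ratios and most counts near the values given. Several settings could hardly have changed them. TMM shifts the libraries by just 0.00084 on the log2 scale from library totals. Ratios of the FPKM values repeat those of library totals, apart from the 0.1 FPKM added. Filters of 0 or 5 CPM removed none of the 37 genes, which all had at least 6.90 CPM in wild type. With upper quartile scaling 1 of the 6 damage kinase genes was lower past 1.5-fold in place of 2. At 2-fold in place of 1.5-fold, 1 of the 37 genes was lower, with 0 damage kinases, 1 recombination gene and 0 Fanconi genes. Where the ratio itself had to pass 1.5-fold, 8 genes were lower (4 of them in recombination) and 1 higher (in end joining). The share of all measured genes by that rule was not computed, so these counts are not a result about the 37 genes. Without genes whose exons overlap another gene by over 5%, 1 recombination gene was lower. No paired analysis was possible because there is 1 library per genotype. For the same reason no library could be left out. Depth limits the genes with few counts: the widest interval spanned 0.394 on either side on the log2 scale and the narrowest 0.0843.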
